A study of Danio rerio with 8 samples.

Results

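The genes described here are named for proteins of the cytosolic ribosome and were measured in adult zebrafish ventricular cardiomyocytes. They were the rows with at least 1 CPM (counts scaled to the library total) in at least 2 libraries whose Ensembl symbol begins with rpl or rps and a digit, or names a P-stalk protein. S6 kinases and RPS19-binding proteins were left out. All 82 rows with such a symbol passed this filter, out of 13895 genes that passed it and 31388 in the table. There were 43 genes of the large subunit, 35 of the small subunit and 4 of the P-stalk (*rplp0*, *rplp1*, *rplp2* and *rplp2l*). The rule also took in *rpsa*, but no row carried that symbol, so the set is not complete. Membership rests on the symbol alone. Hearts came from *tbx5a:GFP;myl7:nuc-dsRed* double transgenic fish of 6 to 9 months. GFP reports the regulatory elements of *tbx5a*, and nuc-dsRed, driven by *myl7*, marks cardiomyocyte nuclei in both populations. Cells with both colours were sorted as *tbx5a*+ cardiomyocytes and cells with nuc-dsRed alone as *tbx5a*- cardiomyocytes, from fish with no injury or drug. Each replicate pooled 5 hearts and carried the number 2, 8, 9 or 10 in both populations, which gave 4 pairs and 8 libraries. Since each library is a pool, variation between single fish cannot be read from it.

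A ribosome is built from a small subunit, which reads the mRNA, and a large subunit, which joins the amino acids. The P-stalk is a flexible arm of the large subunit made of P0 with P1 and P2, and it recruits the elongation factors. Each ribosome holds about equal numbers of nearly all these proteins, and in vertebrates their mRNAs start with an oligopyrimidine tract through which the TOR pathway adjusts their translation together. Cardiomyocytes raise ribosome production when they grow, and the trabecular and cortical layers of the zebrafish ventricle differ in *tbx5a* reporter activity. The authors also describe trabecular cardiomyocytes without GFP in the basal ventricle, so *tbx5a*- cells need not all be cortical.

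Depth and purity were as follows. Libraries held an estimated 7149190 to 9491779 reads each, and every value is a normalised expression value in which 1 read is worth 0.859 to 1.19. The sorted gene *tbx5a* lay between 3197 and 4919 in *tbx5a*+ libraries and between 90.5 and 442 in *tbx5a*- libraries (log2 fold change 4.32 ± 0.36 (SE), limma adjusted p = 8.74e-08, n = 4 per population). The summed cardiomyocyte markers took 11.3% to 14.2% of every library. The *tbx5a*- libraries of pairs 2 and 9 stood apart from the other 6, with 12225 and 11329 genes above 0 against 13301 to 14983. The main results that rest on them are given with and without them. They also had the fewest estimated reads, 7149190 and 7262615 against 8050277 to 9491779 in the other 6. Nothing in the labels explains why these libraries held fewer genes, and the part of depth was not tested.

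Ribosomal protein mRNA took a smaller share of the *tbx5a*+ libraries, and the difference was wide in 2 of the 4 pairs. The 82 genes together took 1.68%, 1.83%, 1.89% and 1.89% of the library total in *tbx5a*+ cells of pairs 2, 8, 9 and 10. In *tbx5a*- cells they took 2.82%, 1.99%, 2.97% and 2.03%. The highest *tbx5a*+ share thus lay below the lowest *tbx5a*- share, but only by a little, and the *tbx5a*- libraries of pairs 2 and 9 lay far above all others. The means were 1.82% ± 0.10 and 2.45% ± 0.51 (SD, n = 4), a ratio of 1.35 of *tbx5a*- to *tbx5a*+. Within pairs the ratio was 1.68, 1.09, 1.57 and 1.07 for pairs 2, 8, 9 and 10. Without the *tbx5a*- libraries of pairs 2 and 9 the ratio of the means was 1.105, and with pairs 8 and 10 alone it was 1.08. In bulk samples, a change in the proportion of cells with many ribosomal protein mRNAs and a change in these mRNAs per cell cannot be told apart.

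The gap in the share depended partly on the scale. Summed over the deposited values, which carry the normalisation of the authors, the 82 genes came to 138945, 166763, 170971 and 168824 in *tbx5a*+ libraries and to 221023, 163846, 255828 and 160594 in *tbx5a*- libraries, in the same order of pairs. On that scale the *tbx5a*- sums of pairs 8 and 10 lay inside the *tbx5a*+ range, and only the *tbx5a*- sums of pairs 2 and 9 lay outside it. The lowest of the 8 sums was that of the *tbx5a*+ library of pair 2.

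Both subunits followed this pattern, and the P-stalk followed it in pair 2 but not in pair 9. The large subunit took 0.831%, 0.885%, 0.926% and 0.935% of the total in *tbx5a*+ libraries and 1.35%, 0.982%, 1.47% and 0.994% in *tbx5a*- libraries of pairs 2, 8, 9 and 10. The small subunit took 0.772%, 0.870%, 0.882% and 0.871% against 1.37%, 0.939%, 1.43% and 0.950%. The P-stalk took 0.0724%, 0.0725%, 0.0820% and 0.0846% against 0.0925%, 0.0709%, 0.0708% and 0.0875%. The *tbx5a*- to *tbx5a*+ ratio of the mean shares was 1.34 for the large subunit, 1.38 for the small subunit and 1.03 for the P-stalk, where the libraries of both populations overlapped. Without the *tbx5a*- libraries of pairs 2 and 9 these ratios were 1.105, 1.11 and 1.02.

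**Figure D1:**
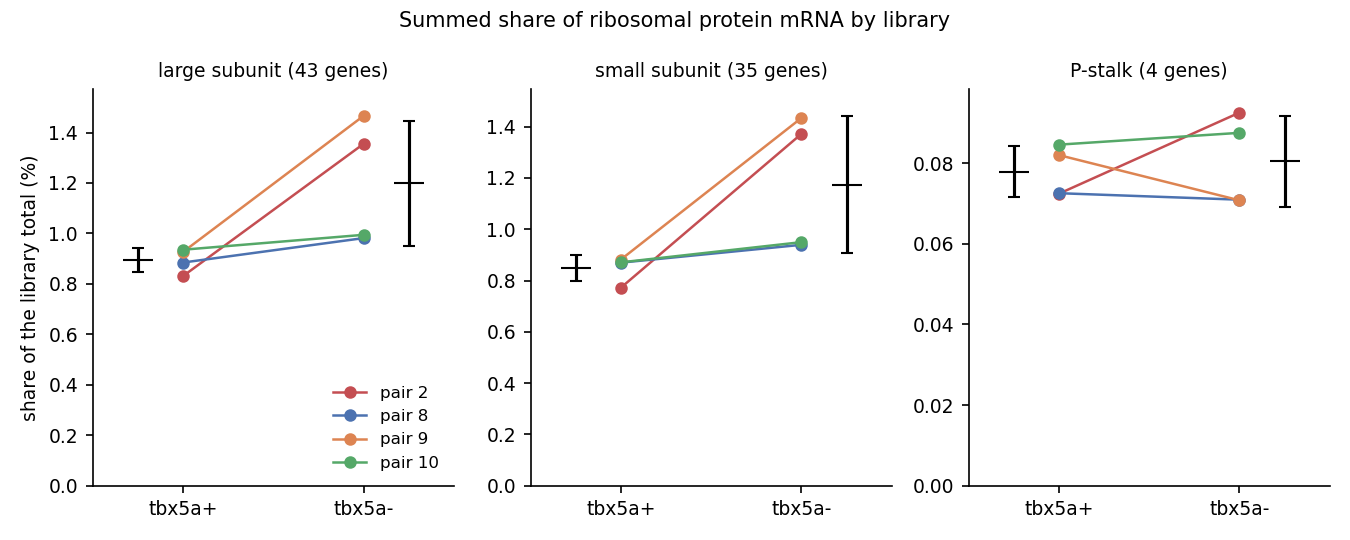
Share of the library total (%, vertical axis from 0) taken by large subunit, small subunit and P-stalk genes in each of the 8 libraries. Lines join the *tbx5a*+ and *tbx5a*- library of a pair, and black marks give the mean and SD of 4 libraries. The *tbx5a*- libraries of pairs 2 and 9 lie highest for both subunits, at 1.35% and 1.47% for the large and 1.37% and 1.43% for the small subunit, while the P-stalk libraries overlap.

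Gene by gene, most ribosomal protein genes were lower in *tbx5a*+ cells of pairs 2 and 9. In pair 8 the directions were mixed, and in pair 10 most were slightly higher in *tbx5a*+ cells. The median difference in log2(value + 1) over the 82 genes was -0.71 in pair 2, -0.004 in pair 8, -0.61 in pair 9 and 0.082 in pair 10. Over all 13895 genes tested the medians were 0.13, 0.0, 0.21 and 0.0. In pair 2, 46 of the 82 genes were lower in *tbx5a*+ cells by at least 1.5-fold, against 26.3% of all genes tested. In pair 9 there were 43, against 25.7% of all genes tested. In pair 8 there were 4 and in pair 10 there were 2, against 27.4% and 29.0% of all genes tested, so in these pairs such a difference was rarer among ribosomal protein genes than among all genes. Most genes in the table have far lower values and vary more within a pair.

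Of the 82 genes, 60 were lower in *tbx5a*+ cells in both pair 2 and pair 9, and 10 in both pair 8 and pair 10. By at least 1.5-fold there were 31 and 0. Taken 1 pair at a time, 67, 42, 68 and 24 of the 82 genes were lower in pairs 2, 8, 9 and 10. Of all genes tested, 41.99%, 45.45%, 39.83% and 47.57% were lower in these pairs. The share of all genes that were lower in both pairs at once was not computed. In 45 of the 82 genes both *tbx5a*- libraries of pairs 2 and 9 lay above all other 6, against 6.12% of all genes tested. These were 24 genes of the large subunit, 21 of the small subunit and 0 of the P-stalk. All 45 were, by this construction, lower in *tbx5a*+ cells of pairs 2 and 9, and 26 of them were lower in pair 8 and 11 in pair 10. The 2 libraries were singled out for their low number of genes above 0 after the values had been seen, so these counts are a description. The part of that low number in the result was not tested.

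Across the 82 genes, the differences of pairs 2 and 9 had a Pearson r of 0.42 and a Spearman rho of 0.40. Among the 77 genes with a mean value of at least 100 these were 0.40 and 0.40. Across all 13895 genes tested they were 0.10 and 0.092. The other combinations, in the order r and rho, gave 0.42 and 0.25 for pairs 2 and 8, 0.12 and 0.14 for pairs 2 and 10, 0.11 and 0.28 for pairs 8 and 9, 0.14 and -0.066 for pairs 8 and 10, and -0.042 and -0.14 for pairs 9 and 10. Among the 77 genes, r and rho were 0.12 and 0.18 for pairs 2 and 8 and 0.16 and 0.13 for pairs 2 and 10. They were 0.27 and 0.33 for pairs 8 and 9, 0.029 and -0.056 for pairs 8 and 10, and -0.22 and -0.14 for pairs 9 and 10. Genes are not independent replicates, and these correlations describe the libraries only. The *tbx5a*- library of pair 9 was the highest of the 8 for 48 genes (58.5%), against 19.5% of all genes tested. That of pair 2 was the highest for 20 (24.4%), against 16.8% of all genes tested. The *tbx5a*+ library of pair 2 was the lowest of the 8 for 46 genes, a count for which no share over all genes was computed.

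**Figure D2:**
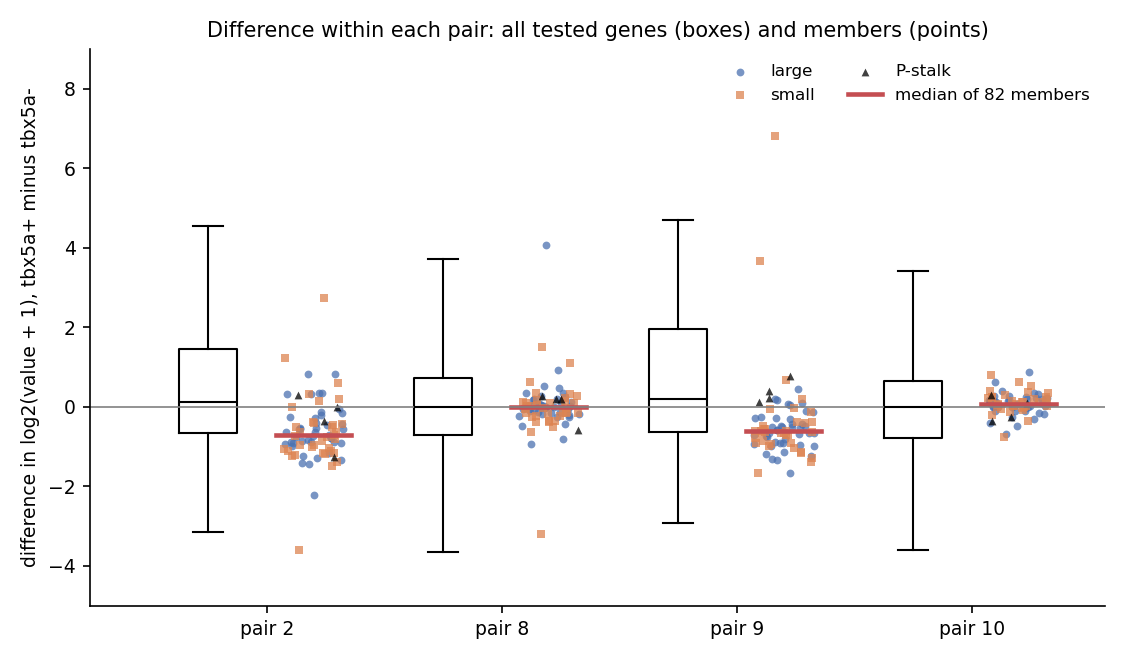
Difference in log2(value + 1), *tbx5a*+ minus *tbx5a*- (vertical axis), in each pair (horizontal axis). Boxes give the quartiles of the 13895 genes tested with whiskers at the 5th and 95th percentile, points the 82 ribosomal protein genes and red lines their medians, which are -0.71, -0.004, -0.61 and 0.082 for pairs 2, 8, 9 and 10.

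No ribosomal protein gene passed the test of the 4 *tbx5a*+ against the 4 *tbx5a*- libraries. The test was limma, fitted across all genes on log2(value + 1) without a pair term. A call required both an adjusted p not above 0.05 and at least a doubling or halving. Adjusted p-values of single genes are from this fit unless the block is named. Of the 82 genes 0 were called, and of all genes tested 0.194% were. At an unadjusted p under 0.05, 14 of the 82 genes were lower in *tbx5a*+ cells, against 2.44% of all genes tested. The only gene higher at that level was *rps26*, against 4.62% of all genes tested. With the pair as a block there were again 0 calls, 26 genes were lower at an unadjusted p under 0.05, against 2.95% of all genes tested, and 1 was higher. The lowest adjusted p among the 82 genes was 0.472 without the block and 0.0802 with it, both for *rpl29*.

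The count of 14 changed when single libraries were left out. Such fits have fewer libraries, and no share of all genes was computed for them or for another scaling. The count was 3 without the *tbx5a*- library of pair 9, 4 without that of pair 2 and 4 without the *tbx5a*+ library of pair 2. It was 9 without the *tbx5a*+ library of pair 10 and 32 without the *tbx5a*- library of pair 10. Without both *tbx5a*- libraries of pairs 2 and 9 it was 0. Scaled to the library total it was 28.

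Over the 4 pairs, 66 of the 82 genes had a log2 fold change below 0 and 16 above 0. Of all genes tested, 38.7% lay below 0. Over all genes tested, the median deviation from a gene's mean log2 value was lowest in the *tbx5a*- libraries of pairs 2 and 9, at -0.103 and -0.245. The median log2 fold change of the 82 genes was -0.28, against 0.20 over all genes tested. Most genes in the table have far lower values, so these 2 medians compare unlike genes. Without the *tbx5a*- libraries of pairs 2 and 9 the medians were -0.030 and 0.036, and with pairs 8 and 10 alone they were 0.041 and 0.037. Scaling to the library total moved the median of all genes by about as much as that of the members, to 0.090 and -0.40. The median was -0.28 for the large subunit, -0.39 for the small subunit and -0.001 for the P-stalk. The 8 genes that were lower in *tbx5a*+ cells in 4 of 4 pairs, against 5.38% of all genes tested, were *rpl7a*, *rpl7l1*, *rpl12*, *rpl22l1*, *rpl24*, *rpl27*, *rpl35a* and *rps15*. For 0 of the 82 genes did all *tbx5a*+ libraries lie below all *tbx5a*- libraries, against 1.65% of all genes tested.

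**Figure D3:**
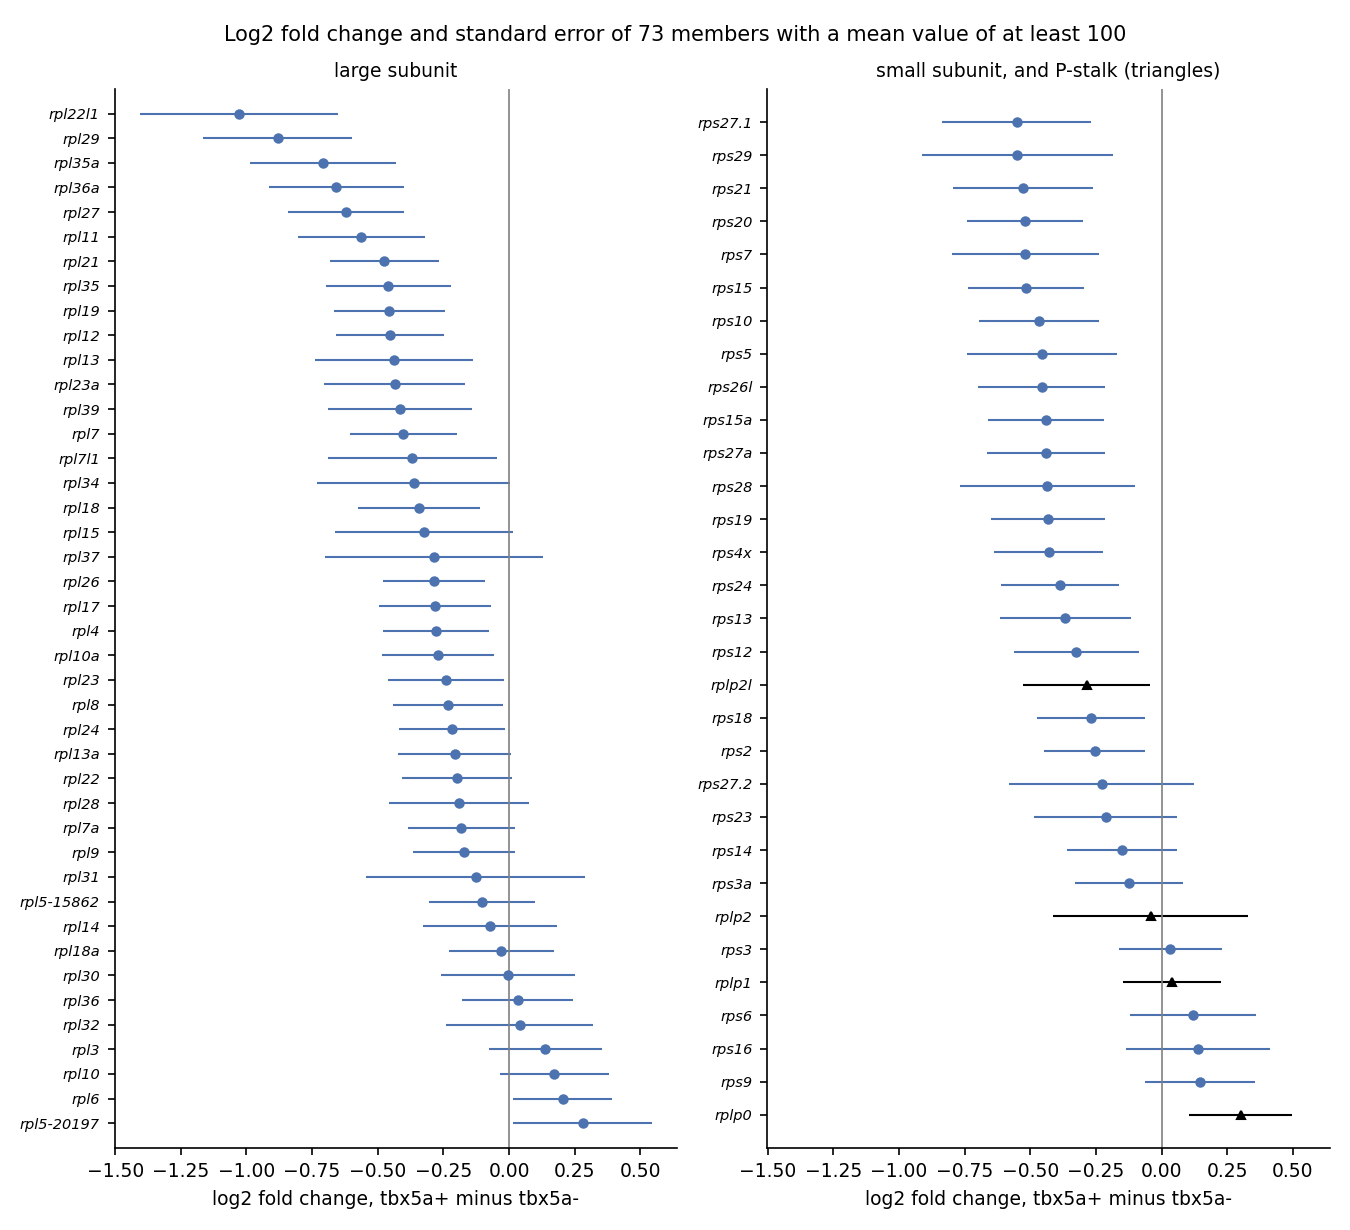
Log2 fold change, *tbx5a*+ minus *tbx5a*- (horizontal axis), with its limma standard error (bars) for 73 ribosomal protein genes with a mean value of at least 100. Values run from -1.03 for *rpl22l1* to 0.30 for *rplp0*, and most points of both subunits lie below 0.

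In the large subunit the gene with the lowest p was *rpl29*, which encodes a small basic protein of the solvent-facing surface. It had values of 502, 527, 765 and 634 in *tbx5a*+ cells and 1271, 1006, 1910.0 and 607 in *tbx5a*- cells of pairs 2, 8, 9 and 10. The *tbx5a*- value exceeded every *tbx5a*+ value in pairs 2, 8 and 9 and lay inside their range in pair 10. Its log2 fold change was -0.88 ± 0.28 (SE, limma adjusted p = 0.472, n = 4 per population). For *rpl27* the values were 1854, 2877, 2749 and 2357 against 4925, 3403, 4589 and 2521. The direction held in 4 of 4 pairs, with a log2 difference of -1.41 in pair 2 and -0.097 in pair 10. Its log2 fold change was -0.62 ± 0.22 (limma adjusted p = 0.566).

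A further 3 large subunit genes were among the 5 of lowest p, and each had its widest difference in pair 2 or 9. *rpl22l1*, a paralog of *rpl22*, had 85.2, 211, 222 and 121 in *tbx5a*+ cells and 400.2, 284, 387 and 194 in *tbx5a*- cells, lower in 4 of 4 pairs (-1.03 ± 0.38, limma adjusted p = 0.572). *rpl36a* had 871, 1005, 1212 and 999.9 against 1642, 1394, 2873 and 999, equal in pair 10 (-0.66 ± 0.26, limma adjusted p = 0.624). *rpl35a*, whose human counterpart is mutated in some families with Diamond-Blackfan anaemia, had 983, 762, 1163 and 1089 against 1937, 881, 2934 and 1352, lower in 4 of 4 pairs (-0.71 ± 0.28, limma adjusted p = 0.624). None of these differences passed the adjusted threshold. With the pair as a block, the limma adjusted p of the 5 genes ran from 0.0802 for *rpl29* to 0.257 for *rpl22l1*. Without the *tbx5a*- libraries of pairs 2 and 9 the log2 fold changes of the 5 genes were closer to 0, at -0.38 for *rpl29*, -0.27 for *rpl27*, -0.66 for *rpl22l1*, -0.22 for *rpl36a* and -0.15 for *rpl35a* (SE 0.23 to 0.43).

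The 3 large subunit genes with the highest mean value did not move alike. *rpl11*, which with *rpl5* and the 5S rRNA forms a particle that in human cells also binds MDM2, had 3999, 6135, 5257 and 4798 in *tbx5a*+ cells and 10815, 6009, 10386 and 4351 in *tbx5a*- cells. Its difference was thus 1.44 and 0.98 log2 units in pairs 2 and 9, with *tbx5a*+ the lower, and slightly reversed in pairs 8 and 10. *rpl7* had 4715, 6734, 5754 and 6233 against 8141, 6625, 10733 and 5992. *rpl3*, which encodes a protein close to the peptidyl transferase centre, had 6172, 3538, 5302 and 6575 against 4881, 3562, 4927 and 6054. For *rpl3* the populations overlapped throughout, with a log2 fold change of 0.14 ± 0.21 (limma adjusted p = 0.912).

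A few large subunit genes lay above 0. *rpl6* had 3980.3, 3565, 3781 and 4334 in *tbx5a*+ cells and 3147, 2804, 4052 and 3682 in *tbx5a*- cells, higher in pairs 2, 8 and 10 and lower in pair 9 (0.21 ± 0.19, limma adjusted p = 0.827). *rpl10*, whose protein joins the large subunit at a late step of its maturation, had 1432, 1369, 1481 and 1889.8 against 1144, 1354, 1443 and 1518, higher in 4 of 4 pairs (0.17 ± 0.21, limma adjusted p = 0.872). Of the 43 large subunit genes 36 lay below 0 and 7 above it, against 38.7% of all genes tested below 0. Those with a mean value of at least 100 ran from -1.03 to 0.28.

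**Figure D4:**
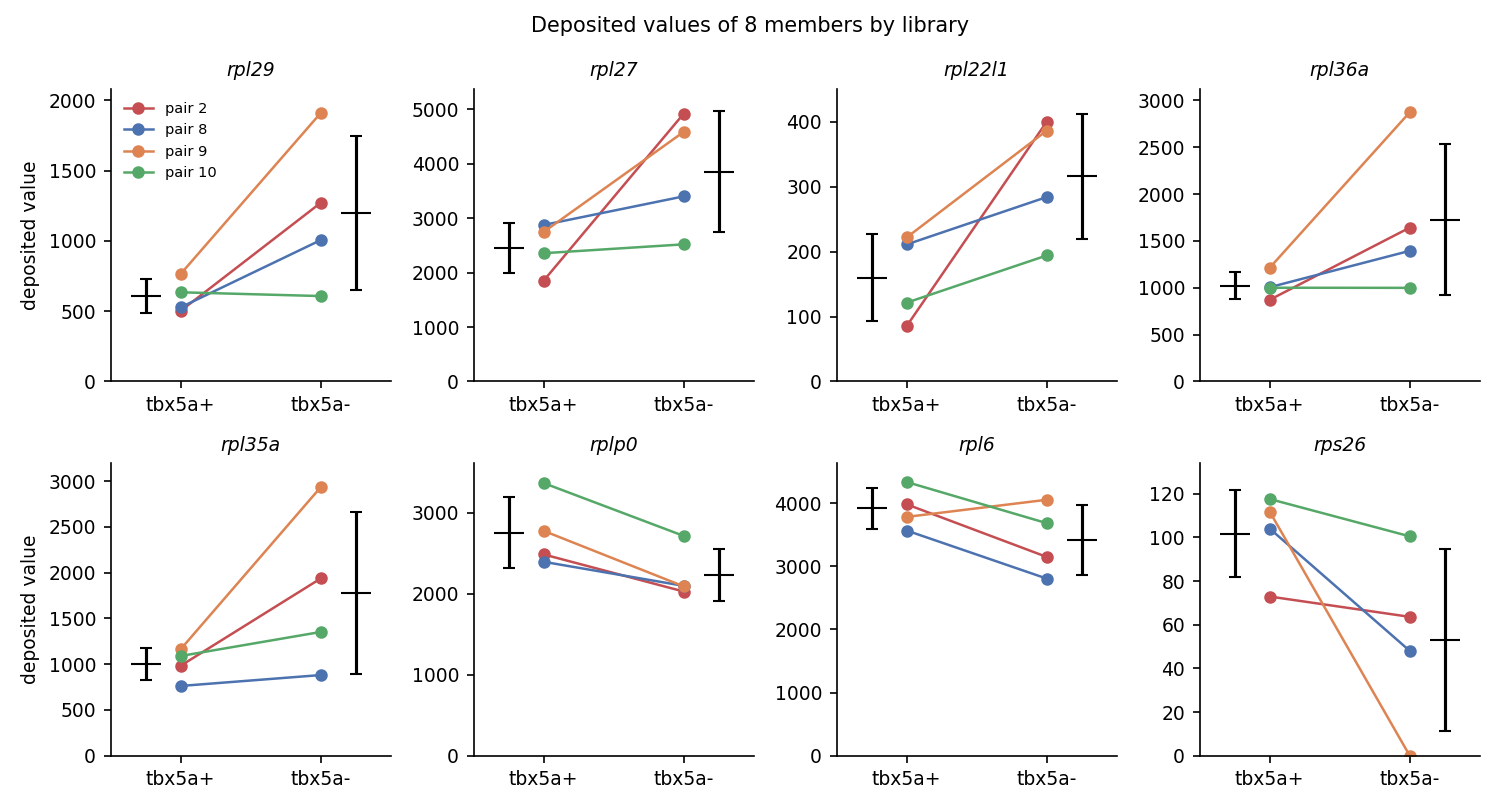
Deposited normalised values (vertical axes from 0) of 8 ribosomal protein genes in the 8 libraries, with lines joining pairs and black marks for the mean and SD of 4 libraries. The 5 genes of lowest p below 0 (*rpl29*, *rpl27*, *rpl22l1*, *rpl36a* and *rpl35a*) have their widest gaps in pairs 2 and 9, *rplp0* is higher in *tbx5a*+ cells in 4 of 4 pairs, and *rps26* has a listed value of 0 in *tbx5a*- cells of pair 9.

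In the small subunit the highest mean values, which are not corrected for gene length, belonged to *rps2*, *rps18* and *rps9*. *rps2*, whose protein lines the mRNA entry channel, had 11519.8, 15021, 13817 and 15934 in *tbx5a*+ cells and 16221, 14026, 21473 and 15796 in *tbx5a*- cells. Only the *tbx5a*- values of pairs 2 and 9 lay above the *tbx5a*+ range. *rps18* had 4701, 6980.0, 6765 and 5406 against 7328, 5999, 10009 and 5734. *rps9*, which contacts the mRNA entry channel as well, had 5859.5, 4827, 5931 and 5495 against 5315, 3143, 6459 and 5688. It was the small subunit gene with the highest log2 fold change among those with a mean value of at least 100, at 0.15 ± 0.21 (limma adjusted p = 0.903).

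Another small subunit gene, *rps27.1*, had 564, 631, 931 and 755 in *tbx5a*+ cells and 1099.9, 984, 1857 and 576 in *tbx5a*- cells (-0.55 ± 0.29, limma adjusted p = 0.716). It was lower in *tbx5a*+ cells in pairs 2, 8 and 9 and higher in pair 10, and without the *tbx5a*- libraries of pairs 2 and 9 its log2 fold change was -0.090. Of the 35 small subunit genes 28 lay below 0 and 7 above it, against 38.7% of all genes tested below 0. Those with a mean value of at least 100 ran up to 0.15. The quartiles of the 35 were -0.48 and -0.18 around a median of -0.39, against a median of -0.28 for the large subunit.

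For the 5 genes with a mean value under 100 the standard errors were wide, and their differences did not pass adjustment. *rps26*, another human Diamond-Blackfan anaemia gene, had 72.9, 104, 112 and 118 in *tbx5a*+ cells and 63.6, 48.0 and 100.5 in *tbx5a*- cells of pairs 2, 8 and 10, with a listed value of 0 in *tbx5a*- cells of pair 9. It was higher in *tbx5a*+ cells in 4 of 4 pairs, and its log2 fold change of 2.08 ± 0.99 (limma adjusted p = 0.701) was 0.52 without the *tbx5a*- libraries of pairs 2 and 9. The 5 genes, *rps25* and *rpl38* among them, had standard errors of 0.59 to 1.31, against 0.19 to 0.42 for the 77 other genes.

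The P-stalk genes had no common direction, and whether they differed from the other ribosomal protein genes was not tested. *rplp0*, the base of the stalk, had 2486, 2395, 2777 and 3368 in *tbx5a*+ cells and 2028, 2098, 2091 and 2715 in *tbx5a*- cells. It was higher in *tbx5a*+ cells in 4 of 4 pairs, by 0.19 to 0.41 log2 units, with a fold change of 0.30 ± 0.20 on the log2 scale (limma adjusted p = 0.749). The *tbx5a*- library of pair 10 was above 2 of the 4 *tbx5a*+ values, so the populations overlapped.

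The stalk tips varied without a common direction. *rplp1* had 2678, 2952, 3376 and 3193 in *tbx5a*+ cells and 3415, 2561, 2907 and 2998 in *tbx5a*- cells, a log2 fold change of 0.040 ± 0.19 that was -0.079 when scaled to the library total. *rplp2* had 152, 181, 199 and 149 against 151, 271, 116 and 192. *rplp2l* had 689, 1094, 1064 and 843 against 1660.2, 905, 979 and 1013. For *rplp2l* the *tbx5a*- library of pair 2 was far above the other 7, and the remaining values overlapped. In pair 9 0 of the 4 P-stalk genes were lower in *tbx5a*+ cells, against 37 of 43 genes of the large and 31 of 35 of the small subunit. In pair 2 2 of the 4 were lower, with a median difference of -0.17, and the summed P-stalk share was 1.28 times as high in *tbx5a*- cells, the same direction as for both subunits.

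Of the 82 genes, 7 were higher in *tbx5a*+ cells in both pair 2 and pair 9, a count without a share over all genes. They included *rpl3*, *rpl10* and 1 *rpl5* gene of the large subunit, *rps26* of the small subunit, and *rplp0* and *rplp2* of the P-stalk. A further 15 were higher in 1 of these pairs. The *rpl5* gene had 643, 446, 609 and 579 in *tbx5a*+ cells and 362, 444, 443 and 652 in *tbx5a*- cells (0.28 ± 0.26, limma adjusted p = 0.834). Of those named, *rps26* alone differed by more than 0.83 log2 units in either pair.

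Ratios between paralogs within a library do not depend on how the library was scaled. Of 9 paralog pairs compared, *rpl22l1* to *rpl22* was the only 1 in which the populations did not overlap. RPL22L1 can take the place of RPL22 in the ribosome, and in mice loss of Rpl22 raises Rpl22l1. *rpl22l1* made up 4.38%, 6.76%, 7.60% and 4.84% of the sum of both values in *tbx5a*+ cells of pairs 2, 8, 9 and 10. In *tbx5a*- cells it made up 12.9%, 9.87%, 9.11% and 7.97%. The lowest *tbx5a*- share, in pair 10, was above the highest *tbx5a*+ share, in pair 9, and the direction held in 4 of 4 pairs.

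The log2 ratio of *rpl22l1* to *rpl22* was lower by 0.83 in *tbx5a*+ cells (a difference of -0.83, with SD 0.40 in *tbx5a*+ and 0.33 in *tbx5a*- cells). A two-sided exact permutation test over the 70 splits of 8 libraries gave p = 0.0286, the smallest it can give, and an adjusted p of 0.257 over the 9 pairs. Changing signs within the 4 pairs, the exact p was 0.125, which is the smallest such a test allows. The difference was thus not significant after adjustment. Without the *tbx5a*- libraries of pairs 2 and 9 it was -0.67 (exact permutation p = 0.133), and with any 1 of the 8 libraries left out it was -0.97 to -0.68 (exact permutation p of 0.0286 to 0.0571). Values are not corrected for gene length, so the shares compare libraries and not the abundance of 1 paralog with the other.

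The other 8 pairs overlapped between populations. *rps26* made up 6.02%, 6.40%, 7.70% and 7.52% of the sum with *rps26l* in *tbx5a*+ cells and 1.96%, 3.37% and 6.76% in *tbx5a*- cells of pairs 2, 8 and 10, with *rps26* listed at 0 in pair 9 (exact permutation p = 0.0857, adjusted p = 0.386). *rpl7l1* made up 3.02%, 5.08%, 5.06% and 3.62% of the sum with *rpl7* against 3.18%, 5.18%, 3.04% and 5.15% (exact permutation p = 1.0). The exact permutation p was 0.571 for *rps27.2* to *rps27.1*, 0.543 for *rplp2* to *rplp2l* and 0.257 for the 2 genes that share the symbol *rpl5*. Paralogs of near-identical sequence share reads, and how the read assignment split them was not tested.

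**Figure D5:**
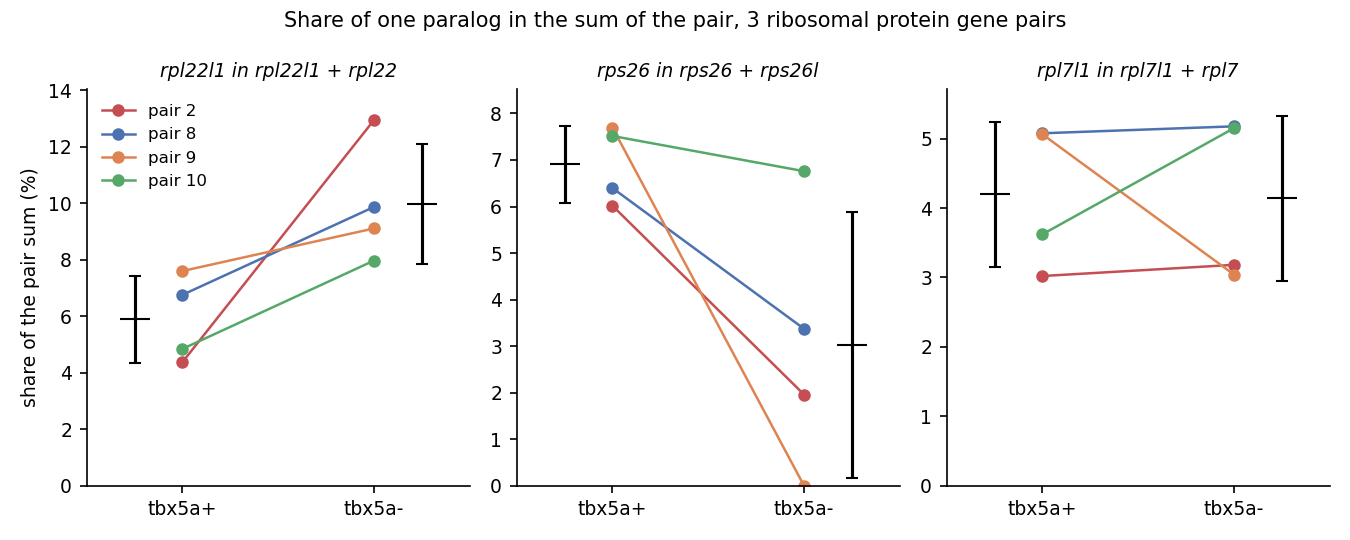
Share of 1 paralog in the summed value of a paralog pair (%, vertical axes from 0) in each library, with lines joining pairs and black marks for the mean and SD of 4 libraries. For *rpl22l1* every *tbx5a*- library lies above every *tbx5a*+ library (7.97% and above against 7.60% and below), while *rps26* and *rpl7l1* overlap between populations.

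Other genes of the translation machinery were read from lists of their own. Of 12 elongation genes, 8 lay below 0 in log2 fold change, against 38.7% of all genes tested. Their median was -0.14, and by pair the medians were -0.55, 0.072, -0.31 and 0.050 for pairs 2, 8, 9 and 10. The elongation factor subunit gene *eef1g*, at rank 3 by p in this list, had 2268, 2548, 3117 and 3423 in *tbx5a*+ cells and 3336, 2619, 4196 and 3353 in *tbx5a*- cells. As a share of the library total, the elongation genes had *tbx5a*- to *tbx5a*+ ratios of 1.082, 1.079, 1.292 and 1.059. By share, pair 2 was thus close to pair 8. Of 9 genes for ribosome-bound factors and ribosomal protein fusions outside the symbol rule, 6 lay below 0, with a median of -0.062 and pair medians of -0.49, -0.042, -0.43 and 0.17. In both lists 0 genes passed the test in either direction.

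In these medians, initiation factors and assembly factors showed less of that pattern. Of 52 initiation genes 20 (38.5%) lay below 0, close to the 38.7% of all genes tested. Their median was 0.12, with pair medians of 0.005, 0.092, 0.060 and 0.18. Over all genes tested the pair medians were 0.13, 0.0, 0.21 and 0.0, so the initiation medians lay below these in pairs 2 and 9. Of 91 ribosome biogenesis genes 46 lay below 0, with a median of -0.002 and pair medians of 0.12, -0.065, -0.20 and 0.072. The biogenesis median also lay below the 0.20 over all genes tested. In pair 9, 53 of the 91 genes (58.2%) were lower in *tbx5a*+ cells, against 39.83% of all genes tested. As a share of the library total, the biogenesis genes were higher in *tbx5a*- cells in every pair. The ratios of *tbx5a*- to *tbx5a*+ were 1.155, 1.169, 1.178 and 1.087 for pairs 2, 8, 9 and 10. Of 25 genes of the TOR and MYC pathways, which set ribosome production, 6 lay below 0, with a median of 0.40, against 0.20 over all genes tested. The list mixes genes that raise and genes that restrain ribosome production, so its median gives no direction of pathway activity. In these 3 lists 0 genes passed the test in either direction. The initiation gene of lowest p was *eif4ebp1*, which encodes a repressor of cap-dependent initiation that TOR inactivates. It had 869.8, 694, 881 and 941 in *tbx5a*+ cells and 423, 543, 389 and 684 in *tbx5a*- cells. Each *tbx5a*+ value was above each *tbx5a*- value, as for 2 of the 52 initiation genes and 322 of the 13895 genes tested. The difference did not pass the adjusted threshold (0.76 ± 0.25, limma adjusted p = 0.506).

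The listed smooth muscle and mural cell genes, taken as a sum, were highest in the 2 libraries of highest ribosomal protein share. Not every gene of the list was, and the other 6 libraries did not line up. Of 7 matched smooth muscle and mural cell genes, 6 were tested and 2 were called lower in *tbx5a*+ cells. These were *acta2* and a *tagln* gene, which encode smooth muscle actin and transgelin, and immature or remodelling cardiomyocytes express them as well. The list summed to 251.8, 254.2, 199.8 and 544.9 in *tbx5a*+ libraries of pairs 2, 8, 9 and 10. In *tbx5a*- libraries it summed to 2098, 563, 2845 and 1003. It was thus highest in the same 2 libraries in which ribosomal protein mRNA was highest. Most of these 2 sums came from the called *tagln* gene, at 1685 and 2063. Another *tagln* gene had 27.4 and 8.3 in the same libraries, with a log2 fold change of 0.805 ± 0.905 (limma adjusted p = 0.863). The tested *myh11a* gene had 11.3, 0, 1.91 and 11.3 in *tbx5a*+ libraries of pairs 2, 8, 9 and 10. In *tbx5a*- libraries it had 0, 0, 23.7 and 48.1, so its highest value was in pair 10. *cnn1b* was lower in *tbx5a*+ cells in 4 of 4 pairs. Its *tbx5a*- value was lowest in pair 2, at 38.4, against 64.4, 171 and 56.7 in pairs 8, 9 and 10. Of the 6 tested genes, 4 were lower in *tbx5a*+ cells in pair 2, 3 in pair 8, 5 in pair 9 and 6 in pair 10. The *tbx5a*+ library of pair 9 had the lowest sum of the list at a ribosomal protein share of 1.89%. The *tbx5a*- libraries of pairs 8 and 10 had sums of 563 and 1003 at shares of 1.99% and 2.03%. *acta2* had 3.29, 0, 0 and 5.84 in *tbx5a*+ cells and 284, 111, 518 and 189 in *tbx5a*- cells (limma adjusted p = 0.00088).

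The remaining marker lists did not line up with the ribosomal protein share in the same way. Of 10 matched leukocyte genes, 1 to 4 were above 0 per library, and the list summed to 24.9 to 35.8 in *tbx5a*+ libraries and to 256, 50.1, 2.37 and 41.2 in *tbx5a*- libraries. It was thus highest in the *tbx5a*- library of pair 2 and lowest in that of pair 9. The 8 matched endothelial and endocardial genes summed to 60.2 to 183 and 45.02 to 251, the 9 fibroblast and epicardial genes to 47.3 to 84.7 and 14.5 to 184, and the 6 erythrocyte genes to 12.8 to 26.8 and 0 to 26.3. The part of other cell types in the ribosomal protein difference was not tested.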

How the data were processed

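The 8 RNA-Seq libraries, 4 per population, were grouped and paired by the sample labels. Libraries came from 0.6 ng of RNA. The submitters' processing notes name CASAVA 1.8.2, cutadapt, RSEM 1.2.3 and the build Zv9, and the methods name another RSEM version and annotation. Since it is unknown which of them made the table, coordinates are left out. The authors deposited a normalized signal per gene and library rather than counts: values below 60 were multiples of 1 spacing per library within 0.0051 in 71.1% to 77.7% of cases, and these spacings give the estimated reads. Of the table's columns, 0 were without a mapped sample.

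The filter was the one of the methods, 1 CPM or more (from value over library total) in 2 libraries or more. The test was limma 3.58.1 (R 4.3.3) on log2(value + 1) with a variance trend, and p-values were adjusted by Benjamini-Hochberg over 13895 genes. EdgeR, which the authors used, needs counts and was not run. Fold changes on the log2(value + 1) scale understate changes of low genes. Other steps used Python 3.11.15 with pandas 2.3.3, numpy 2.4.6, scipy 1.17.1 and matplotlib 3.10.9. Symbols were matched for 25925 of 31388 IDs. The 2 rows with the symbol *rpl5* are told apart by their values. Some members and their paralog pairs are not reported here by name, but stay in all counts, sums and adjustments. Levels per coding length and sequences were not used here.

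The series describes its replicates as paired. Deviations of a pair's libraries from their group means correlated at 0.089, 0.058, 0.043 and 0.076 across genes for pairs 2, 8, 9 and 10. Among the *tbx5a*- libraries, the best match of every *tbx5a*+ library carried its own number. The block is therefore given where it changes a call or a count. Each replicate is a separate pool of hearts. Members and lists were chosen with earlier results of these data known. Genes were named by a rule: calls, the 5 lowest p in each direction, the 3 highest mean values of each group, the 3 largest changes in each direction leaving out the members of lowest mean value, paralog sets and P-stalk genes, and up to 3 genes of lowest p of a list. Another *tagln* gene and *myh11a* were named beside the called genes of their list. Alternatives are a value added of 0.25 or 4, other filters, scalings and fits, the block, and leaving out libraries.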

Additional observations from a re-analysis of the deposited data

Results flagged for a closer look

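Within groups of 4 libraries, 3 of 58 groups had a highest or lowest library whose gap to the nearest other exceeded, as a part of the group's range, the 95% critical value of Dixon's test. Chance flags about 1 in 20 groups. For *rplp0* the *tbx5a*- library of pair 10 was highest, at 2715 (a gap of 0.898 of the range). For *rplp2l* the *tbx5a*- library of pair 2 was highest, at 1660.2 (0.858). For the summed share of the small subunit the *tbx5a*+ library of pair 2 was lowest, at 0.772% (0.888).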

How the results depend on the processing

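In all 20 alternative fits 0 of the 82 genes were called, 12 of the 25 named genes kept their direction in every fit that held them, and 21 of 500 values of single genes changed sign. The ratio of the summed share was 1.25 to 1.43 when 1 library was left out, 1.34 with a total without the 10 genes of highest mean and 1.33 without mitochondrially encoded genes. Genes lower at an unadjusted p under 0.05, 14 in the report, numbered 26 with the replicate block, 28 with library total scaling, 0 without the *tbx5a*- libraries 2 and 9, 0 with pairs 8 and 10 only (chosen after seeing the data), and 3 to 32 with 1 library left out. The 1 higher gene became 0 with a value added of 0.25, without a filter, with 10 CPM in 4 libraries, with robust limma, with library total scaling, without the *tbx5a*- libraries 2 and 9 and with pairs 8 and 10 only, and 0 to 2 with 1 library left out. Settings that leave out libraries have fewer samples, and shares of all genes were computed only for the main fit and the block. The cause of the other shifts was not tested. With pairs 8 and 10 only, the median turned to 0.041 and 34 genes lay below 0.

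Single genes that changed sign, as log2 fold changes, were *rplp1* with library total scaling (-0.079), and with pairs 8 and 10 only the *rpl5* gene with the lower values (-0.081), *rpl7* (0.040), *rpl11* (0.086), *rps2* (0.056), *rps18* (0.067), *rplp2l* (0.004), *rps26l* (0.10) and *rpl22* (0.13). Without the *tbx5a*- libraries 2 and 9 they were *rps18* (0.005), *rpl22* (0.011) and the *rpl5* gene with the higher values (0.077). With 1 library left out the ranges that crossed 0 were those of *rplp2* (-0.235 to 0.17), *rpl3* (-0.002 to 0.328), *rps9* (-0.074 to 0.272), *rplp1* (-0.029 to 0.11) and the *rpl5* gene with the higher values (-0.229 to 0.027). Paralog differences that changed sign, settings chosen after seeing the data, were *rpl7l1* to *rpl7* (-0.35), the *rpl5* genes (-0.008) and *rplp2* to *rplp2l* (-0.35) without the *tbx5a*- libraries 2 and 9, and with 1 library left out *rpl7l1* to *rpl7* (-0.105 to 0.184), *rplp2* to *rplp2l* (-0.019 to 0.55) and *rps27.2* to *rps27.1* (-0.056 to 0.64).

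The block changed no call. The DESeq2 fit planned for counts was not run, since the table holds none. With 4 libraries per population and 5 hearts per pool, differences of the size seen here did not pass adjustment. Genes with a mean value under 100 have wide standard errors, of 0.59 to 1.31, and their directions did not pass adjustment. Among them *rps26* kept its sign in all 20 alternative fits.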
